A study of Mus musculus with 23 samples.

Results

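The genes described here build the basement membrane and the interstitial matrix of the mouse brain: the collagens, the laminin chains, the nidogens Nid1 and Nid2, and the heparan sulfate proteoglycans perlecan (Hspg2) and agrin (Agrn). They were chosen by symbol, as every gene named Col, a number, a and a number, every gene named Lama, Lamb or Lamc with a number, and the 4 linker genes. The rule found 59 of 32285 genes. No measured value entered it, though it was set with earlier results of these data known. Their RNA was followed by cell type, by antibody and by the amount of antibody a cell carried. RNA was counted in single brain cells as UMIs, each standing for 1 captured molecule, in mice given 45 mg/kg of an AF647-labelled antibody into a vein. ATV-TfR (DNP02_hIgG1_LALAPG_ATV35.23.2), which binds the transferrin receptor, was given to TfR mu/hu knock-in mice, and ATV-CD98hc (DNP02 LALAPG LLB2-10-8 monovalent), which binds CD98hc, to CD98hc mu/hu knock-in mice. Control IgG (DNP02_hIgG1_LALAPG), which binds neither, was given to C57BL/6J mice, the background strain of both knock-ins, so treatment and genotype cannot be told apart. All mice were 12 weeks old (3.3 months in the sample labels), and their brains were perfused with saline 24 hours later, freed of pons, medulla, cerebellum and olfactory bulb, and dissociated in the presence of inhibitors of transcription and translation. A sorter split the cells by AF647 signal into a negative, a low, a medium and a high bin (4 bins), with gates set as tertiles of the positive cells of ATV-TfR and used for all treatments. Each treatment had 2 pools, a male and a female mouse in each, and 1 library was made per bin of a pool. The 23 libraries form 12 groups, 11 of 2 libraries, and control IgG negative has replicate 2 alone.

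A basement membrane is a thin sheet of matrix under epithelia and endothelia and around muscle and fat cells. Its collagen IV network is built from triple-helical protomers of the chains encoded by Col4a1 to Col4a6, and its laminin network from trimers of 1 alpha, 1 beta and 1 gamma chain, with nidogens, perlecan and agrin linking the networks. In the brain capillary wall, endothelial cells and pericytes share a vascular basement membrane, and astrocyte endfeet add a parenchymal one. Collagen IV of alpha 1 and alpha 2 chains is the common form, laminins with alpha 4 or alpha 5 belong to vessels, laminin with alpha 2 to the parenchymal side and to muscle, and laminin with alpha 1 to the pia. Fibrillar collagens I, III and V are made by fibroblasts of the meninges and of larger vessels.

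The 6 collagen IV genes lie in 3 head-to-head pairs, in which a gene on the minus strand and a gene on the plus strand start next to each other. The starts are shown because the levels of both genes of a pair are set side by side below. With gene starts from GENCODE on GRCm38, Col4a1 (chromosome 8, minus strand, start at 11312826) and Col4a2 (plus strand, start at 11312805) overlap by the 22 bases of chr8:11312805-11312826. Col4a4 (chromosome 1, minus strand, start at 82586849) and Col4a3 (plus strand, start at 82586921) leave 71 bases between them, chr1:82586850-82586920. The bases of both stretches come from RefSeq's promoter table on GRCm38.p6. They are given 5′ to 3′ on the minus strand, in lower case, with capitals for GGGCGG on either strand (as CCGCCC here), the core of the binding sequence of Sp1.
Col4a1 and Col4a2: ttggagacgCCGCCCgcgcact
Col4a4 and Col4a3: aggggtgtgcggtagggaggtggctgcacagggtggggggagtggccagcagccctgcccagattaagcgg
The first stretch holds 1 GGGCGG and the second none, and neither holds CCAAT or TATAAA on either strand. Col4a6 (chromosome X, minus strand, start at 141474076) and Col4a5 (plus strand, start at 141475385) lie 1308 bases apart. For 43 of the 59 genes RefSeq's promoter table has an entry, with 48 promoters of 250 bases in all. GGGCGG was in 58.3% of these 48 and in 32.7% of all 32851 promoters of that length, and GGGAGG in 68.8% and 38.0%. CCAAT was in 31.3% against 33.8%, and TATAAA in 10.4% against 12.4%. The median GC content was 60.0% against 52.4%. These shares describe letters in the windows and were not tested.

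Libraries held 1861238 to 90307818 UMIs, and 234024 cells were kept, 519 to 19341 per library. They formed 38 clusters without the 59 genes among the genes used, and 33 clusters were named as 14 classes by marker lists that hold none of the 59. Another 5 clusters with 6968 cells (2.98%) stayed unnamed. Of the kept cells, 5.75% have a barcode sequence that occurs in more than 1 library. Levels are UMIs of a gene per 1000000 UMIs of a class (CPM), over all bins of a pool unless a bin is named. CPM is not divided by gene length, so levels are compared between cells and not between genes. Replicates are pools of different mice, and an SD over pools spans all 3 treatments. Intervals of count ratios cover counting error only.

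Fibroblast-like cells gave the largest summed level of the 59 genes, 7824 CPM ± 849 (SD, n = 6 pools). Pericyte-like cells followed with 3728 ± 585 (n = 6), smooth muscle-like cells with 2980 ± 218 (n = 5) and endothelial-like cells with 1567 ± 157 (n = 6). Between 5 and 6 pools, or 4 for oligodendrocyte precursor-like cells, had the 20 cells of a class that a level needed. The other 10 classes had means of 370 to 1389 CPM. A mean of 10 CPM or more in at least 1 class was reached by 52 genes, and 26 of them were highest in fibroblast-like cells, 8 in pericyte-like, 4 in ependymal-like, 3 each in choroid plexus epithelial-like and neuron-like, and 2 each in smooth muscle-like and oligodendrocyte precursor-like cells. Endothelial-like, microglia-like, border macrophage-like and neutrophil-like cells had 1 each. Some first places were close: Nid2 had 54.3 CPM in fibroblast-like and 52.7 in choroid plexus epithelial-like cells (higher in 3 of 6 pools), Col7a1 11.5 in pericyte-like and 10.9 in fibroblast-like cells (3 of 6), Col8a2 91.6 in ependymal-like and 89.5 in choroid plexus epithelial-like cells (3 of 5), and Col4a4 41.2 in pericyte-like and 38.7 in choroid plexus epithelial-like cells (5 of 6). The other 7 (Col2a1, Col6a4, Col6a6, Col9a1, Col10a1, Col20a1, Col24a1) stayed below 10 CPM in every class, the highest of them being Col20a1 in oligodendrocyte precursor-like cells with 9.57 CPM. These places are of class means, and a single cluster of a class can lie higher. Cluster 24 of the endothelial-like class, described below, had 1232 CPM of Col4a1, 820 of Col4a2 and 733 of Hspg2. It had 561 CPM of Col13a1, 255 of Col15a1 and 225 of Lama3 (means, n = 5 pools). Each of these is above the highest class mean of its gene. In bulk sums of a class, fewer expressing cells and less RNA per expressing cell cannot be told apart.

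**Figure D1:**
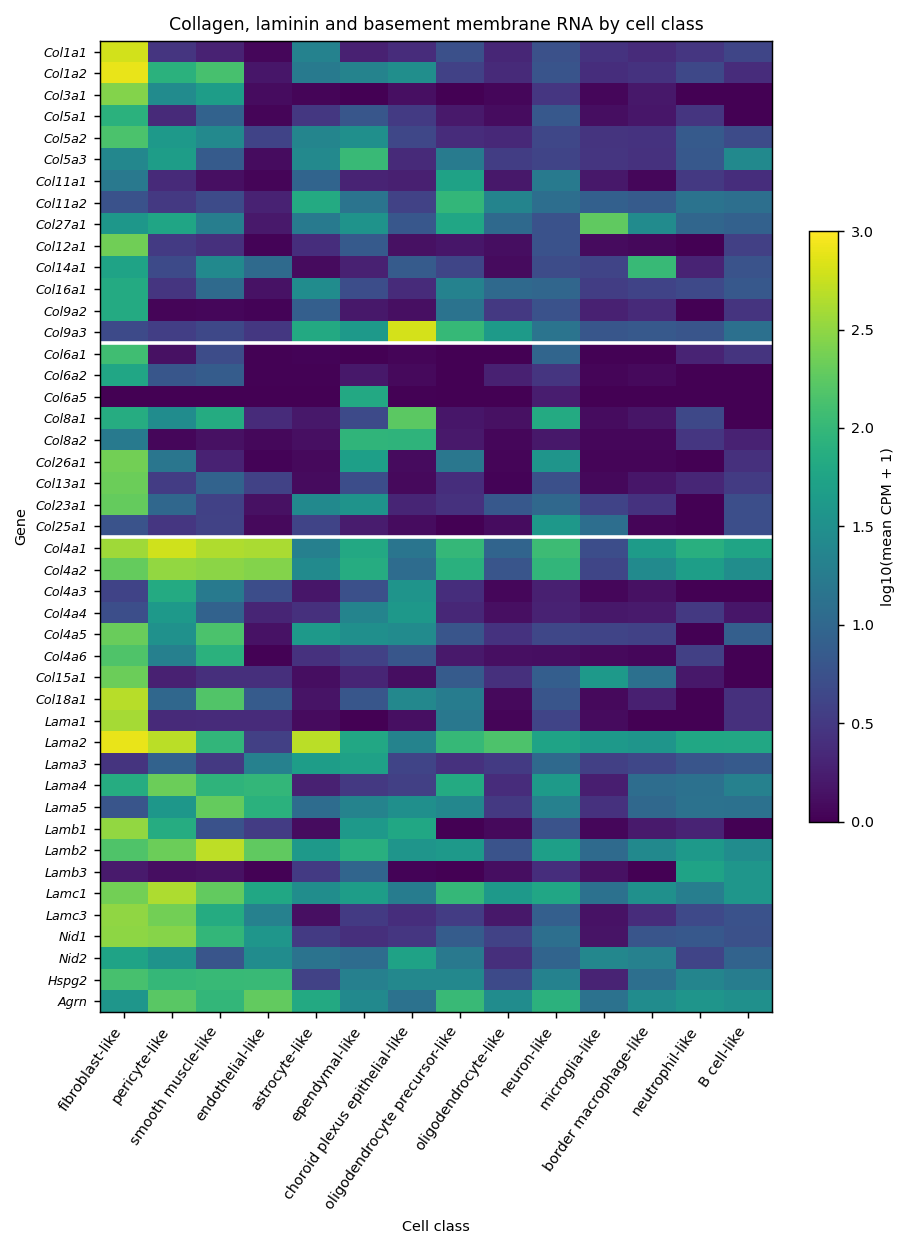
Mean level over pools of the 45 genes (rows) that reach 20 CPM in 1 or more of the 14 classes (columns), coloured as log10(CPM + 1); the astrocyte-like column uses the 5 pools with at least 50 cells. The fibroblast-like column is the brightest for 24 genes, and single rows stand out elsewhere, such as Col9a3 in choroid plexus epithelial-like cells (638 CPM) and Col27a1 in microglia-like cells (183 CPM).

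The collagen IV genes split by pair over the cells of the vessel wall. Col4a1 had 432 CPM in the lowest, 622 in the median and 730 in the highest pericyte-like pool, against 384, 437 and 509 in smooth muscle-like, 351, 390 and 527 in endothelial-like and 220, 382 and 558 in fibroblast-like pools. Its partner Col4a2 had medians of 321, 299, 269 and 207 CPM in the same order. Both were thus present in all 4 wall classes, whose pools overlapped in part. Outside them Col4a1 was highest in neuron-like cells, with a mean of 112 CPM, and lowest in microglia-like cells, with 4.13. Col4a3 and Col4a4, known from the glomerulus and other special basement membranes, were highest in pericyte-like cells with 67.3 CPM ± 15 and 41.2 ± 13 (SD, n = 6). In smooth muscle-like cells they had 15.7 ± 3.9 and 7.80 ± 2.8 (SD, n = 5). Col4a5 and Col4a6, which assemble with each other in smooth muscle, had 204 ± 110 and 149 ± 86 in fibroblast-like cells (SD, n = 6) and 141 ± 31 and 80.6 ± 25 in smooth muscle-like cells (SD, n = 5). Endothelial-like cells had 0.393 and 0.0473 CPM of them.

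The laminin alpha chains marked different wall cells. Lama1, the chain of the pial basement membrane, had 161 CPM in the lowest, 418 in the median and 554 in the highest fibroblast-like pool, and 1.35 ± 0.74 CPM in endothelial-like cells (SD, n = 6). Lama2 had 617, 799 and 991 CPM in fibroblast-like, 317, 489 and 629 in pericyte-like, and 71.8, 81.4 and 127 in smooth muscle-like pools, so the 3 classes did not overlap apart from the border between fibroblast-like and pericyte-like pools. In endothelial-like cells Lama2 had 2.68 CPM ± 1.1 (SD, n = 6), the lowest level of the 14 classes. Lama4 was highest in pericyte-like cells (138, 212 and 263 CPM), above endothelial-like pools (77.3, 85.1 and 124). Lama5 was highest in smooth muscle-like cells (174, 206 and 215 CPM), with 70.2, 82.7 and 94.7 in endothelial-like and 29.9, 34.9 and 53.8 in pericyte-like pools, which did not overlap with each other. In the negative bins alone pericyte-like cells had 11.9 CPM of Lama5. Pericyte-like cells of the ATV high bins also carried endothelial markers (16468 to 18589 CPM summed), as did those of the control IgG low bin (19342 to 20455). Lama3, best known from the skin, had 50.6 ± 15 CPM in ependymal-like (SD, n = 5) and 19.7 ± 6.2 in endothelial-like cells (SD, n = 6).

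The beta and gamma chains were as uneven. Lamb1 had 270, 287 and 413 CPM in fibroblast-like and 28.8, 73.7 and 91.3 in pericyte-like pools, against 4.63 ± 1.8 in smooth muscle-like (SD, n = 5) and 2.43 ± 2.2 in endothelial-like cells (SD, n = 6). Lamb2 ran the other way, with 469, 484 and 554 CPM in smooth muscle-like, 173, 210 and 241 in pericyte-like, 171, 182 and 203 in endothelial-like and 103, 152 and 181 in fibroblast-like pools. Lamc1, the common gamma chain, was highest in pericyte-like cells (282, 451 and 534 CPM), above endothelial-like pools (51.0, 56.2 and 75.0). Lamc3 had 317 ± 34 in fibroblast-like and 229 ± 55 in pericyte-like cells (SD, n = 6). Lamb3, a chain of epithelial laminin, reached 54.6 ± 39 CPM in neutrophil-like cells (SD, n = 6), with 1 pool down to 6.62 CPM.

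Among genes of 10 CPM or more, the linker Agrn was the only one highest in endothelial-like cells among the 14 classes. It had 180, 190 and 206 CPM in the lowest, median and highest endothelial-like pool. Pericyte-like pools overlapped with them at 153, 169 and 190 CPM, although endothelial-like cells were higher in 6 of 6 pools. In the negative bins alone, pericyte-like libraries had 131 and 151 CPM of Agrn in ATV-TfR and 116 and 155 in ATV-CD98hc. The endothelial-like negative libraries of both ATVs, given below, overlapped with these. Nid1 had 311 ± 31 in fibroblast-like and 286 ± 56 in pericyte-like cells, and 36.2 ± 5.5 in endothelial-like cells (SD, n = 6). Nid2 had 54.3 ± 4.8, 33.4 ± 20 and 28.1 ± 4.2 CPM in the same classes. Hspg2 had medians of 130 CPM in fibroblast-like, 109 in endothelial-like, 108 in smooth muscle-like and 98.9 in pericyte-like pools. The ranges of all 4 classes overlapped, although fibroblast-like cells were above endothelial-like cells in 6 of 6 pools.

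**Figure D2:**
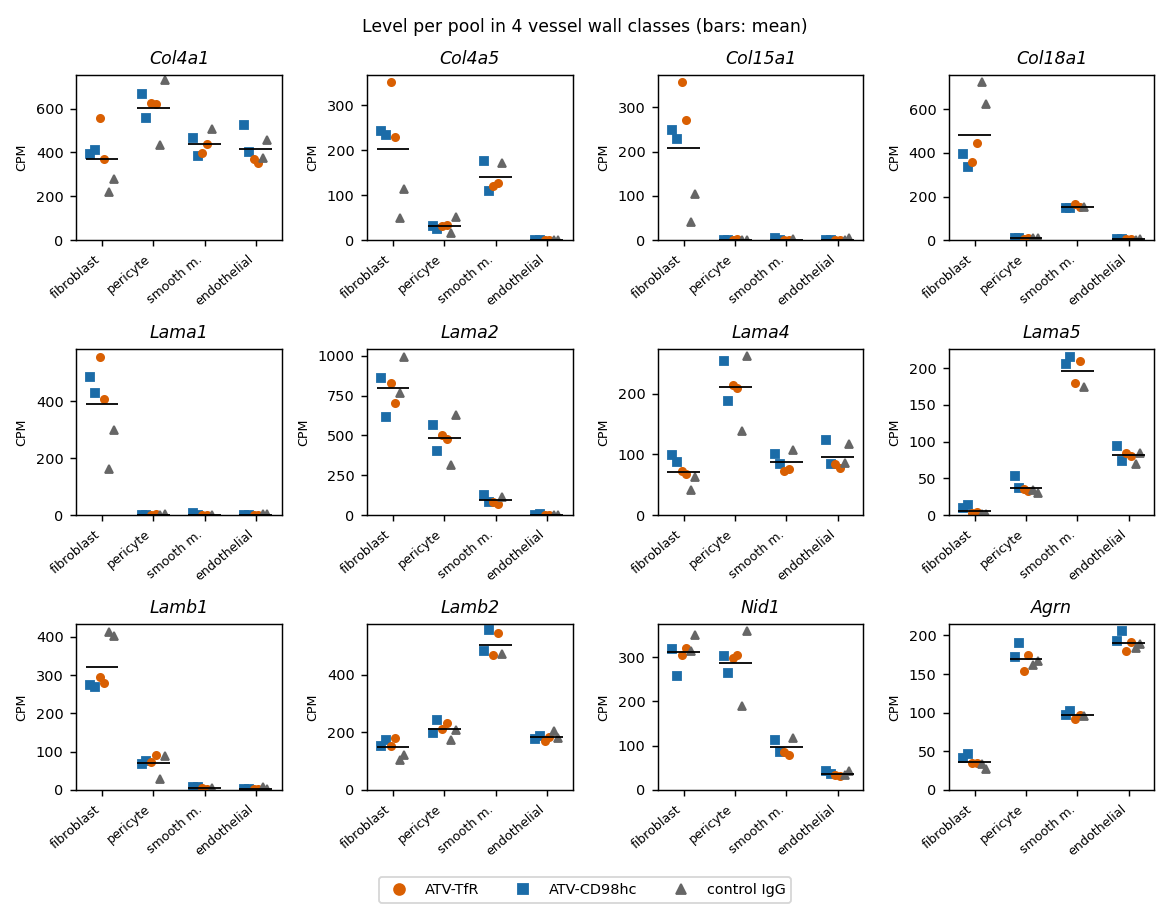
Level in CPM of 12 basement membrane genes in fibroblast-like, pericyte-like, smooth muscle-like and endothelial-like cells; each point is 1 pool and the bar is the mean. Lama5 and Lamb2 are highest in smooth muscle-like pools, Lama2 is near 0 in endothelial-like pools, and Agrn overlaps between endothelial-like and pericyte-like pools.

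Many collagens outside the collagen IV network were highest in fibroblast-like cells among the 14 named classes. Col1a1 and Col1a2, the chains of collagen I, had 622 ± 76 and 803 ± 87 CPM, and Col3a1 had 278 ± 73 (SD, n = 6 for this class throughout). Col5a1 (81.4 ± 26) and Col5a2 (141 ± 20) of collagen V, and Col6a1 (121 ± 22), Col6a2 (59.4 ± 9.1) and Col6a3 (19.9 ± 8.8) of the beaded filaments of collagen VI, were also highest there. So were Col9a2 (67.4 ± 11), Col12a1 (222 ± 65), Col13a1 (213 ± 45), Col16a1 (67.3 ± 7.8), Col22a1 (18.1 ± 13), Col23a1 (196 ± 36) and Col26a1 (230 ± 80). An unnamed cluster, cluster 33 (led by Igfbp6, Prg4 and Mgp), had more of 5 of them: Col6a1 (415 CPM), Col6a2 (294), Col6a3 (30.7), Col12a1 (243) and Col23a1 (290). Cluster 24 of the endothelial-like class had more Col13a1 (561 CPM). Col15a1 and Col18a1, the proteoglycan collagens of basement membranes and sources of endostatin-like fragments, had 208 ± 120 and 480 ± 160 CPM in fibroblast-like cells. Fibroblast-like pools were not alike: Lama1 and Col15a1 were lowest in both control IgG pools (161 and 298, and 40.3 and 105 CPM) and at 407 to 554 and 228 to 356 CPM in the ATV pools. Col18a1 was highest in the control IgG pools (723 and 622 against 336 to 446 CPM). These are sums over all bins, and control IgG replicate 1 has no negative library. The part of the missing bin was not tested. Cluster 26, 1 of the 2 clusters of the class, held 3.50% and 13.2% of the fibroblast-like cells in the control IgG pools and 51.0% to 59.8% in the ATV pools, and its part in these differences was not tested.

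Among the 14 classes, several collagens were highest in cells outside the vessel wall. Choroid plexus epithelial-like cells had 638 ± 110 CPM of Col9a3, 173 ± 46 of Col8a1 and 10.7 ± 1.8 of Col17a1 (SD, n = 6). Ependymal-like cells had 106 ± 22 of Col5a3, 64.4 ± 38 of Col6a5 and 91.6 ± 25 of Col8a2 (SD, n = 5). Oligodendrocyte precursor-like cells had 52.0 ± 11 of Col11a1 and 95.1 ± 28 of Col11a2 (SD, n = 4). Microglia-like cells had 183 ± 27 of Col27a1, a fibrillar collagen of cartilage, with 155, 175 and 224 CPM in the lowest, median and highest pool. Border macrophage-like cells had 105 ± 35 of Col14a1, and neuron-like cells 19.2 ± 11 of Col19a1 and 38.5 ± 30 of Col25a1, a transmembrane collagen of neurons (SD, n = 6). The unnamed cluster 33 had 913 CPM ± 330 of Col25a1 (SD, n = 6), and more of Col8a1 (191), Col8a2 (149) and Col11a1 (58.1) than any of the 14 classes. Pericyte-like cells had 12.8 ± 3.4 of Col28a1 and 11.5 ± 0.93 of Col7a1 (SD, n = 6).

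Astrocyte-like cells carried Lama2 at 491 CPM ± 33.4 (SD, n = 5 pools with at least 50 cells), within 452 to 525 in every one of these pools. Agrn had 64.9 CPM there, Col11a2 66.3, Col9a3 64.6 and Lama3 45.9. Col4a1 and Col4a2 had 19.0 and 26.4 CPM, far below the wall cells. The sixth pool, control IgG replicate 1, held 31 astrocyte-like cells, and Col23a1 had 308 CPM in it against a mean of 25.6 in the others, so it is left out of these values. Oligodendrocyte-like cells had 145 ± 19 CPM of Lama2 (SD, n = 5).

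Which wall cell carries more RNA of a chain was tested between 5 fixed pairs of classes with edgeR's quasi-likelihood test, with the pool as a block and Benjamini-Hochberg adjustment over 17259 genes. An adjusted p below 0.05 counts as a call. These pairs differ in a large share of all genes, so counts of called genes are read beside that share. Against pericyte-like cells, endothelial-like cells were called higher in 4 and lower in 30 of the 56 genes tested, beside 46.7% of all genes called (19.6% higher, 27.1% lower). The median log2 difference was -1.91 over the 56 and -0.05 over all genes. The lowest was Col4a6 (log2 -7.94), followed by Col26a1 (-7.71), Lama2 (-7.48, SE 0.51, adjusted p = 3.1e-21 in edgeR), Col5a3 (-7.43), Col1a2 (-7.26), Col3a1 (-6.75), Col6a2 (-6.55), Col27a1 (-6.46), Col4a5 (-6.14) and Lamb1 (-5.44). Nid1 (-2.90), Lamc1 (-2.74) and Lama4 (-1.02) were lower by less. The 4 higher in endothelial-like cells were Lama5 (1.26, SE 0.25), Lama3 (1.47, SE 0.29), Col14a1 (1.26) and Col6a6 (2.40). Bins differ within both classes: in the negative bins alone Lama5 had 117 CPM in endothelial-like and 11.9 in pericyte-like cells, and Lama3 105 and 3.87. A fit on the negative bins alone called 7 of 51 genes higher and 28 lower, beside 22% and 20.9% of all genes. Over all bins, Col4a1, Col4a2, Lamb2, Nid2, Hspg2, Agrn, Col15a1 and Col18a1 were not called, and their calls in the negative bins alone are not given. The pericyte-like libraries held 683 to 20455 CPM of summed endothelial markers, as given below. The part of that RNA in this pair was not tested.

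Fibroblast-like cells were called higher than pericyte-like cells in 29 and lower in 12 of the 56, beside 47.5% of all genes (23.1% higher, 24.4% lower). The largest differences were Col1a1 (log2 9.14), Col9a2 (8.42), Lama1 (8.13), Col6a1 (7.95), Col15a1 (7.67), Col13a1 (6.78), Col12a1 (6.38) and Col8a2 (6.21). Col6a3 and Col22a1, with 1 to 3 UMIs in pericyte-like cells, had count ratios of 177 (95% interval 60.0 to 863) and 145 (49.0 to 708). The 12 lower ones were Col4a2, Col4a3, Col4a4, Col5a3, Col27a1, Col28a1, Lama3, Lama4, Lama5, Lamb2, Lamc1 and Agrn.

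Against smooth muscle-like cells, fibroblast-like cells were higher in 31 and lower in 7, beside 45.5% of all genes. Col1a1 (9.11), Lama1 (8.47), Col26a1 (7.64), Col15a1 (7.20), Col12a1 (6.95), Col23a1 (6.01) and Lamb1 (5.98) led, with a count ratio of 387 (107 to 3201) for Col9a2. Lama5 was lower by -5.61, with Lamb2, Agrn, Col4a3 and Col4a4 also lower. Col19a1 had no UMI in fibroblast-like cells and was at least 13.1-fold lower, against a floor of 3 counts over the class. Pericyte-like cells were higher than smooth muscle-like cells in 18 and lower in 17, beside 38.9% of all genes. They had more Lamb1 (4.06), Col26a1 (3.96), Col5a3 (2.70), Lama2 (2.45), Col4a3 (2.04) and Lamc1 (1.10), and less Col18a1 (-4.30), Col6a1 (-3.36), Col14a1 (-2.64), Lama5 (-2.57) and Lamb2 (-1.36). Col19a1, Col6a3 and Col24a1, with at most 3 UMIs in pericyte-like cells, had count ratios in favour of smooth muscle-like cells of 72.6 (12.0 to 2966), 17.5 (5.23 to 91.8) and 15.02 (1.82 to 691).

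Astrocyte-like cells differed from endothelial-like cells in 30 genes called higher and 22 lower, but 83.8% of all genes were called in this pair (50.7% higher, 33% lower), so the count sets the 59 apart from nothing. Lama2 (7.38), Col1a1 (7.30), Col11a1 (6.79), Col5a3 (6.71), Col4a5 (6.59), Col16a1 (6.49), Col23a1 (6.34), Col9a2 (6.26) and Col11a2 (6.19) were higher, and Lama4 was lower (-6.76). The vascular genes Hspg2 (-5.21), Col4a1 (-4.51), Nid1 (-3.98), Col4a2 (-3.52), Lama5 (-2.86), Lamb2 (-2.13), Agrn (-1.57), Lamc1 (-1.08) and Nid2 (-1.04) were all lower in astrocyte-like cells. Col18a1 (-3.78), Lamb1 (-2.63) and Col15a1 (-2.11) were lower as well.

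Because chains assemble in set partners, 6 ratios of UMIs between partner or alternative chains were compared in 3 pairs of classes within pools, 18 comparisons in all, with an exact sign-flip permutation test over pools (two-sided). The log2 of Lama5 over Lama4 was -0.21 in endothelial-like and -2.46 in pericyte-like cells over all bins, where the level of Lama5 differs between bins as given above, a difference of 2.26 ± 0.49 (SD) with the same sign in 6 of 6 pools. In the negative bins alone that difference was 5.08. In smooth muscle-like cells it was 1.16, higher than in the pericyte-like cells of the same pools by 3.75 ± 0.31 in 5 of 5 pools. Lama2 over Lama4 was 3.50 in fibroblast-like, 1.18 in pericyte-like and -5.23 in endothelial-like cells. Lamb2 over Lamb1 was 6.60 in endothelial-like, 1.62 in pericyte-like and -1.13 in fibroblast-like cells. Col4a1 over Col4a2, a head-to-head pair, moved least: 0.56 in endothelial-like against 0.87 in pericyte-like cells. The difference was -0.32 ± 0.19, with the same sign in 6 of 6 pools. The sign count does not show the size per pool, and pools were not alike. Control IgG replicate 1 has no negative library, and control IgG low pericyte-like cells carried 19342 to 20455 CPM of endothelial markers. Over the 5 pools with smooth muscle-like cells, Nid2 over Nid1 in pericyte-like cells was -3.60 ± 0.26 (SD), against -3.21 ± 0.97 over all 6. Col4a1 over Col4a2 was 0.93 ± 0.10 there, against 0.87 ± 0.17. The part of endothelial RNA was not tested. With 6 pools the smallest possible p is 0.03125, reached by 10 of 12 ratios, which gives an exact permutation adjusted p of 0.05625 over the 18, and with 5 pools it is 0.0625, so none of the 18 passed 0.05.

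The endothelial-like cells of the brightest and of the negative bin were then compared, to ask whether matrix genes go with the antibody a cell carries. In ATV-TfR, cells of the high bin had far less Col13a1, Col15a1, Col18a1 and Lama3 than cells of the negative bin, less Hspg2 and Nid1, and Col4a1, Col4a2, Lama4, Lama5 and Lamc1 were not called. Col18a1 had 138 and 142 CPM in the 2 negative libraries and 3.19 and 2.92 in the high ones (log2 change -5.24, SE 0.24, adjusted p = 3.9e-13 in edgeR). It had 136 and 110 in the low and 21.7 and 24.8 CPM in the medium bin, so the lower of the negative libraries was close to the higher of the low ones, and the medium and high bins lay far below. Col13a1, a transmembrane collagen, had 206 and 185 CPM in the negative and 0.0508 and 0.0487 in the high libraries (-11.48, SE 0.60). Col15a1 had 103 and 59.6 CPM from 74 UMIs in the negative bin and 1 UMI in the high bin, a ratio of 1.03e+04 (95% interval 1.79e+03 to 4.12e+05). Of the 41 genes tested, 12 were lower and 1 higher in edgeR, beside 11.3% of all 15539 genes (4.55% higher, 6.74% lower). DESeq2 called 21 in place of 13, a count without the share of all genes called in that fit. It does not show whether these genes alone gained calls. A gene low in the high bins entered the test through the negative bin, so the count of 13 and the median log2 change of -1.59, beside 0.20 over all genes, are descriptions.

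Lama3 fell from 126 and 159 to 12.1 and 10.9 CPM (-3.34, SE 0.31). Hspg2 fell from 322 and 264 to 101 and 110 CPM (-1.20, SE 0.18, adjusted p = 3.7e-05 in edgeR), and Nid1 from 73.7 and 68.1 to 33.4 and 31.1 (-0.87, SE 0.22, adjusted p = 0.0087 in edgeR). The other lower genes were Col3a1 (-6.16), Col8a1 (-5.56), Col5a2 (-5.55), Lamb1 (-4.69), Col20a1 (-2.77) and Col4a3 (-2.34). The only higher gene was Agrn, with 128 and 159 CPM in negative and 182 and 192 in high libraries (0.67, SE 0.19, adjusted p = 0.025 in edgeR). That call was lost with DESeq2 (0.41, adjusted p = 0.13) and with RLE factors in edgeR (0.40, adjusted p = 0.23), among other settings, so the rise depends on the scaling. Col4a1 had 613 and 525 against 362 and 345 CPM (-0.42, adjusted p = 0.16 in edgeR), Col4a2 440.3 and 440.04 against 249.8 and 250.01 (-0.54, adjusted p = 0.064) and Lamb2 281 and 292 against 169 and 182 (-0.44, adjusted p = 0.15). With the pool as a block in edgeR, which pairs bins of the same mice, these 3 were called (-0.42, -0.54 and -0.45, adjusted p = 0.024, 0.0025 and 0.024). The block gave 19 called genes in place of 13, a count without the share of all genes called in that fit. Lama4 (-0.12), Lama5 (-0.34), Lamc1 (-0.12) and Nid2 (0.47) were not called in either fit.

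**Figure D3:**
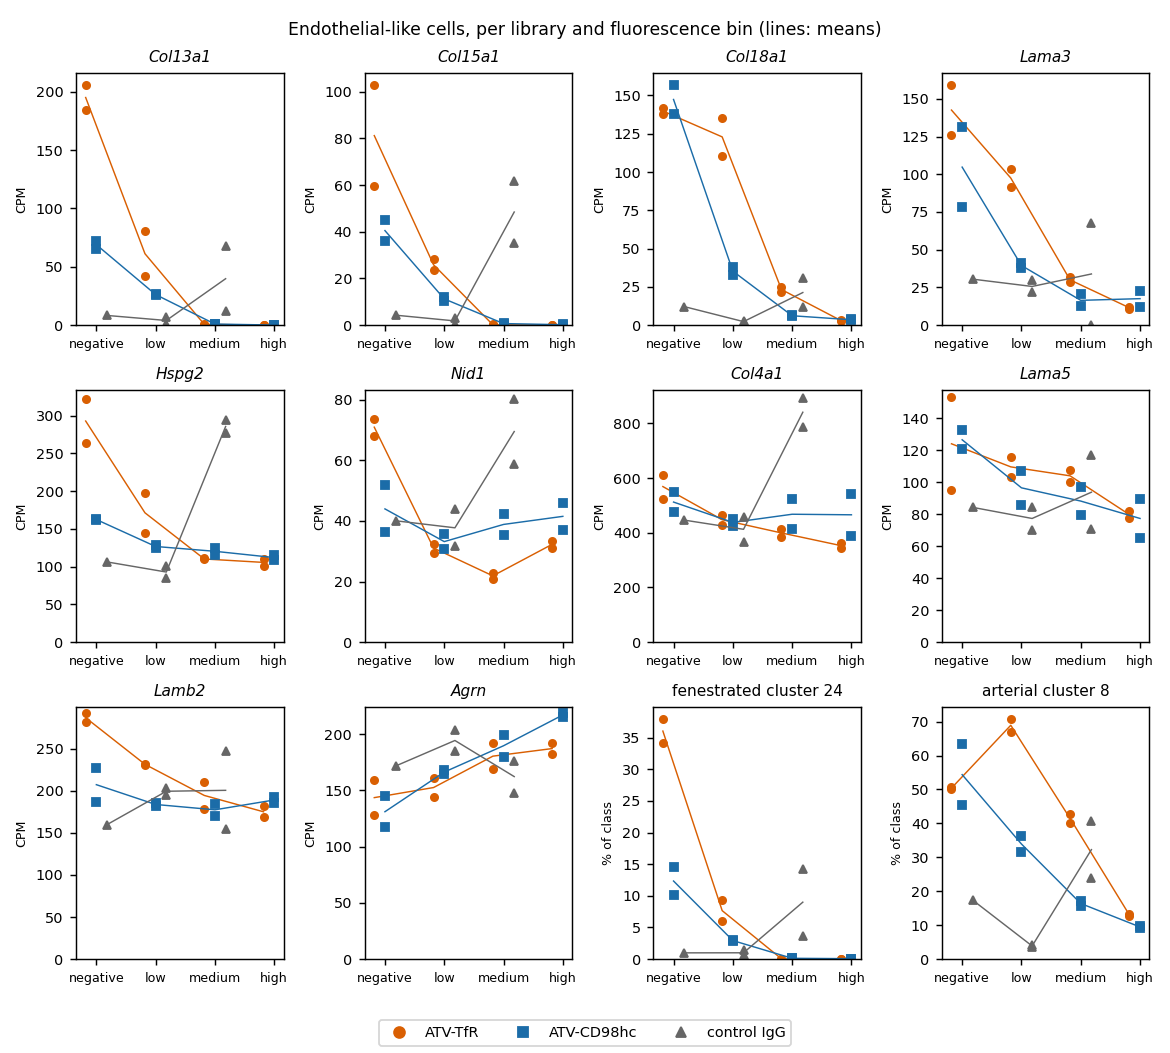
Level in CPM of 10 genes in endothelial-like cells by AF647 bin, and in the last panels the percent of endothelial-like cells in cluster 24 and in cluster 8; each point is 1 library with at least 20 endothelial-like cells, coloured by treatment, and lines join the means. The control IgG medium points rest on 27 and 42 cells. Col13a1, Col15a1 and Col18a1 drop towards the high bins of both ATVs, and the share of cluster 24 is at or near 0% there, a cluster that carried Col13a1 and Col15a1 but 1.01 CPM of Col18a1, while Agrn is higher in them than in the negative bins.

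The negative bin of ATV-TfR held 124 and 82 endothelial-like cells and its high bin 15851 and 14657, and these came from different clusters. Cluster 24, led by Plvap, Igfbp3 and Esm1, genes known from fenestrated and angiogenic endothelium, gave 47 and 28 of the negative and 0 and 0 of the high cells. Cluster 8, led by Gkn3 and Sox17, genes known from arteries, gave 63 and 41 of the negative cells. Col18a1 had 2 UMIs in cluster 24 (1.01 CPM) and 39.7 ± 10.7 CPM in cluster 8 (SD, n = 6 pools). Cluster 24 carried Col13a1 at 561 ± 71.6, Col15a1 at 255, Lama3 at 225, Hspg2 at 733 ± 87.3 and Col4a1 at 1232 ± 256 CPM (SD, n = 5 pools), and cluster 28, which holds most of the control IgG cells in the low bin, had 79.5 CPM of Hspg2 and 18.8 of Lama3. The summed level of 10 fenestrated markers was 4009 to 4868 CPM in negative and 779 to 861 in high libraries, of 10 arterial markers 3972 to 4883 and 529 to 564, of 10 capillary markers 4724 to 5134 and 10874 to 11780, and of 12 fibroblast markers 1429 to 2001 and 62 to 63. Neuron markers (545 to 556 against 81.3 to 96.9 CPM), oligodendrocyte markers (208 to 304 against 24.97 to 28.98) and smooth muscle markers (200 to 434 against 39.8 to 47.1) were also higher in the negative libraries. A fit within cluster 8 alone was added after the data were seen. In it Col18a1 (-4.03), Col5a2 (-5.46), Col8a1 (-5.37), Lamb1 (-3.62) and Lama3 (-2.21) were called lower, with Col3a1, and Nid2 higher (2.24), 7 of 26 genes in all, beside 6.35% of all genes (2.06% higher, 4.29% lower). The part of RNA of fibroblasts, neurons and these other cells was not tested. Hspg2 (0.39, adjusted p = 0.46 in edgeR) and Nid1 (0.03, adjusted p = 0.99) were not called in it and had the opposite sign, and Agrn (0.35, adjusted p = 0.46) was not called. No cell of cluster 24 was in the high bin, so the fall of Col13a1 and Col15a1 cannot be told apart from the absence of that cluster.

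In ATV-CD98hc, 8 of the 41 genes were lower and 1 higher in the high bin, beside 6.36% of all genes (1.94% higher, 4.42% lower), and the largest falls were those of Col13a1 and Col15a1. Col18a1 had 138 and 157 CPM in negative, 32.9 and 37.7 in low, 5.66 and 6.62 in medium and 3.26 and 3.78 in high libraries (-5.14, SE 0.28, adjusted p = 1.3e-11 in edgeR), with no overlap between bins. Col13a1 had 65.5 and 72.4 against 0.0997 and 0.067 CPM (-9.35), and Col15a1 44.8 and 36.2 against 0.299 and 0.067 (-7.60). Col5a2 (-5.59), Col8a1 (-5.30), Lama2 (-3.57), Lama3 (-2.45) and Col14a1 (-2.19) were the others. Lama2 rested on 6 UMIs in 1 negative library, 20.7 and 0 CPM, and without replicate 1 it had the opposite sign (7.04, adjusted p = 0.95). Agrn had 117 and 145 CPM in negative and 215 and 219 in high libraries (0.97, SE 0.22, adjusted p = 0.0053 in edgeR), and it was not called without replicate 1 (0.83, adjusted p = 0.25).

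None of the main capillary wall genes besides Agrn was called in ATV-CD98hc. Col4a1 had 548 and 476 CPM in negative and 542 and 390 in high libraries (0.06), and Hspg2 162 and 163 against 115 and 109 (-0.32). Col4a2 (0.11), Lamb2 (0.07), Lama4 (0.05), Lamc1 (0.13), Lama5 (-0.49), Nid1 (0.07) and Nid2 (1.36) were not called either. Lamb1 had 17.2 and 6.03 against 2.19 and 0.891 CPM (-2.89, adjusted p = 0.057 in edgeR), and with the block it was called (-2.88, adjusted p = 0.036). The negative bin held 79 and 55 endothelial-like cells, 8 and 8 of cluster 24 and 50 and 25 of cluster 8, and the high bin 8741 and 11011 with 8 and 5 of cluster 24. Fenestrated markers summed to 1624 to 2122 CPM in negative and 751 to 838 in high libraries, and fibroblast markers to 721 to 1345 and 64 to 75. Neuron markers summed to 497 to 555 and 51.2 to 53.9 CPM, astrocyte markers to 223 to 845 and 63.5 to 72.0, and oligodendrocyte markers to 155 to 308 and 17.3 to 25.5. Erythroid markers summed to 24.1 CPM in 1 negative library and 23042 in the other, against 384 to 390 in the high libraries. The part of RNA of these other cells was not tested. In cluster 8 alone 4 of 26 genes were called, all lower, beside 3.39% of all genes (2.21% lower): Col18a1 (-3.44), Lama3 (-1.30), Col5a2 and Col8a1.

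The ATVs shared 6 of their lower genes (Col5a2, Col8a1, Col13a1, Col15a1, Col18a1, Lama3), 50% of the 12 in ATV-TfR and 75% of the 8 in ATV-CD98hc, and the higher gene, Agrn. Over all genes 434 were lower in both, 41.5% of those lower in ATV-TfR and 63.2% of those lower in ATV-CD98hc, and 208 were higher in both (29.4% and 68.9%). The difference between their high minus negative changes was tested in the same fit: none of the 41 genes was called, beside 0.0708% of all genes (0.045% higher, 0.0257% lower). Hspg2 differed by -0.89 (SE 0.28, adjusted p = 0.44), Nid1 by -0.94 (SE 0.36, adjusted p = 0.64) and Col15a1 by -4.55 (SE 1.18, adjusted p = 0.24 in edgeR). With the block Col15a1 (-4.56, adjusted p = 0.0065) and Hspg2 (-0.90, adjusted p = 0.039) were called. Col4a1 (-0.48), Col4a2 (-0.65), Lama4 (-0.17), Lama5 (0.16), Lamb1 (-1.81), Lamb2 (-0.51), Lamc1 (-0.25), Nid2 (-0.90), Agrn (-0.31) and Col18a1 (-0.10) were not called in the fit without a block.

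In control IgG the high bin held 10 and 13 endothelial-like cells and could not be tested, and the low bin was compared with the single negative library instead, a comparison added after the data were seen. The negative arm is 1 library, which the fit assumes to vary like the libraries of the other groups, so its calls and SEs have no replicate check on that side. Of 41 genes 1 was called higher and 4 lower, beside 4.06% of all genes (0.534% higher, 3.53% lower), and without ATV-TfR replicate 2, which is in neither arm, 3 genes were called in place of 5. Col18a1 had 12.1 CPM in the negative and 2.71 and 1.90 in the low libraries (-2.43, SE 0.31). Col14a1 (-2.34), Lama2 (-2.16) and Col11a2 (-2.85) were also lower, and Col6a6 was higher (4.22), with 0.692 CPM in the negative and 12.4 and 12.8 in the low libraries. The control IgG negative library held 2327 endothelial-like cells, 23 of them of cluster 24. Neuron (133 against 24.4 to 43.1 CPM), astrocyte (351 against 34.3 to 41.8) and oligodendrocyte markers (154 against 15.3 to 21.7) were higher in the negative library, and their part was not tested. In cluster 8 alone 0 of 26 genes were called in edgeR, beside 0.0709% of all genes.

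Over all bins, none of the 40 genes tested in endothelial-like cells was called between treatments. In edgeR 0 of all 16545 genes (0%) were called in each of the 3 comparisons, with 1146, 714 and 379 genes, and 9, 8 and 2 of the 40, at an unadjusted p below 0.05 for ATV-TfR against control IgG, ATV-CD98hc against control IgG, and ATV-TfR against ATV-CD98hc. DESeq2 called 2, 2 and 0 of the 40, Col6a6 and Lamb1 in both comparisons with control IgG, counts without the share of all genes called by DESeq2. The first 2 comparisons share the control IgG pools. Col4a1 had a mean of 360, 465 and 417 CPM in ATV-TfR, ATV-CD98hc and control IgG, with log2 differences from control IgG of -0.13 (SE 0.19) and 0.18 (SE 0.19). Col4a2 differed from control IgG by -0.04 and 0.18, Lama4 by -0.25 and 0.06, Lama5 by 0.17 and 0.14, Lamb2 by -0.03 and -0.05, Lamc1 by -0.04 and 0.19, Nid1 by -0.18 and 0.09, Nid2 by 0.39 and 0.38, Hspg2 by 0.24 and 0.30, Agrn by 0.07 and 0.12, and Col18a1 by 0.58 and 0.40. Larger but uncalled differences were those of Lamb1 (-1.87, SE 0.41, and -1.77), Col15a1 (-1.69, SE 0.49, and -1.49) and Col6a6 (-3.32 and -3.34, adjusted p = 0.14 and 0.25 in edgeR). Bins enter these sums in unequal parts, and with the low bins alone more genes were called, most of them higher. ATV-TfR had 12 of 41 genes higher and 1 lower than control IgG, beside 9.41% and 5.82% of all genes. ATV-CD98hc had 11 higher and 2 lower, beside 9.89% and 3.77%, and ATV-TfR had 4 higher and 0 lower than ATV-CD98hc, beside 1.16% and 0.708%. Col15a1 had the opposite sign there (3.41 and 2.25 against control IgG). In the low libraries of ATV-TfR, ATV-CD98hc and control IgG, fibroblast markers summed to 1403 to 1597, 440 to 492 and 110 to 116 CPM. Neuron markers summed to 682 to 763, 291 to 333 and 24.4 to 43.1 CPM in the same order. Endothelial markers ran the other way, with 22272 to 22379, 26755 to 27476 and 30299 to 31173 CPM. The part of RNA of other cells in these calls was not tested.

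Pericyte-like cells of the high bins had less Lama2, Lamc1, Lamc3 and Nid1 than those of the negative bins, and more Lama5, in both ATVs. In ATV-TfR 19 of 35 genes tested were lower and 2 higher, beside 23.1% of all 11926 genes (12.6% higher, 10.5% lower). Lama2 had 759 and 663 CPM in negative and 347 and 375 in high libraries (-0.90, SE 0.23), and Lamc1 660 and 607 against 346 and 380 (-0.72, SE 0.20), with no overlap. Nid1 fell from 410 and 425 to 235 and 250 CPM (-0.71, SE 0.19, adjusted p = 0.0085 in edgeR). The largest falls were Col6a2 (-2.14), Col18a1 (-1.60), Col3a1 (-1.48), Col4a3 (-1.11), Col1a2 (-1.08), Col8a1 (-1.06), Col4a4, Col4a5 and Col7a1 (-1.01 each). Lamb1, Lamc3, Lama4, Col5a2, Col5a3, Col23a1 and Col27a1 fell too. Lama5 rose from 7.29 and 11.4 to 47.3 and 41.9 CPM (2.38, SE 0.37, adjusted p = 4.2e-05 in edgeR), and Hspg2 from 78.7 and 79.6 to 111 and 104 (0.52, SE 0.18).

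In ATV-CD98hc 14 of the 35 were lower and 2 higher, beside 21% of all genes (11.1% higher, 9.83% lower). In all, 12 genes were lower in both ATVs, 63.2% of the 19 and 85.7% of the 14, beside 813 of all genes, 64.9% of those lower in ATV-TfR and 69.4% of those lower in ATV-CD98hc. Lama2 had 1040 and 610 CPM in negative and 414 and 337 in high libraries (-1.08, SE 0.24). Col28a1 (-2.07), Col6a2 (-1.95), Col26a1 (-1.28), Col5a2 (-1.16), Col27a1 (-1.10), Col3a1 (-1.09), Col1a2 (-1.04) and Lamc3 (-1.04) led, with Col5a3, Col4a3, Nid1 (-0.90), Lamc1 (-0.79) and Lamb1 (-0.77) after them. Lama5 had 14.4 and 0 CPM in negative and 53.7 and 33.8 in high libraries (2.38, SE 0.51, adjusted p = 0.0014 in edgeR), and Agrn 116 and 155 against 188 and 202 (0.59, SE 0.21).

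The pericyte-like cells of the high bins also carried endothelial RNA. The 12 endothelial markers summed to 683 to 1346 CPM in negative and 16468 to 16494 in high libraries of ATV-TfR, and to 1043 to 1087 and 17766 to 18589 in ATV-CD98hc, with no marker at 0. The high bins were not alone in this. Low libraries had 2081 to 6540 CPM in ATV-TfR and 8090 to 9731 in ATV-CD98hc, and medium libraries 9797 to 9983 and 16235 to 17608. Control IgG had 8650 CPM in its negative library and 19342 to 20455 in its low libraries. The 10 pericyte markers summed to 38503 to 41252 and 19900 to 20497 CPM in ATV-TfR and to 35120 to 46332 and 15596 to 19105 in ATV-CD98hc. The rule for doublets also differed: a fixed percentile of the score was used in the ATV high libraries and an automatic threshold in the negative ones. Stricter doublet removal left the count of calls at 21 for ATV-TfR and gave 15 in place of 16 for ATV-CD98hc. These counts do not show where the endothelial RNA came from, because its level after stricter removal is not given. Smooth muscle markers (3258 to 3296 against 1476 to 1492 CPM) and fibroblast markers (1989 to 2020 against 879 to 979) were lower in the high libraries of ATV-TfR, and astrocyte markers (670 to 765 against 71.6 to 108) in those of ATV-CD98hc. The part of RNA of these other cells in the changes of matrix genes was not tested. Set beside it, Lama5, Agrn and Hspg2, the genes that rose, had 81.5, 191 and 107 CPM in endothelial-like cells, and Lama2, which fell, 2.68. The negative bins alone gave pericyte-like cells 11.9 CPM of Lama5 and 747 of Lama2. Fewer of the 35 genes were called in ATV-TfR without either of its replicates, and in ATV-CD98hc without its replicate 1. Such fits have 1 library per bin of that treatment. The share of all genes called in them is not given, so they do not show whether these genes alone lost calls.

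**Figure D4:**
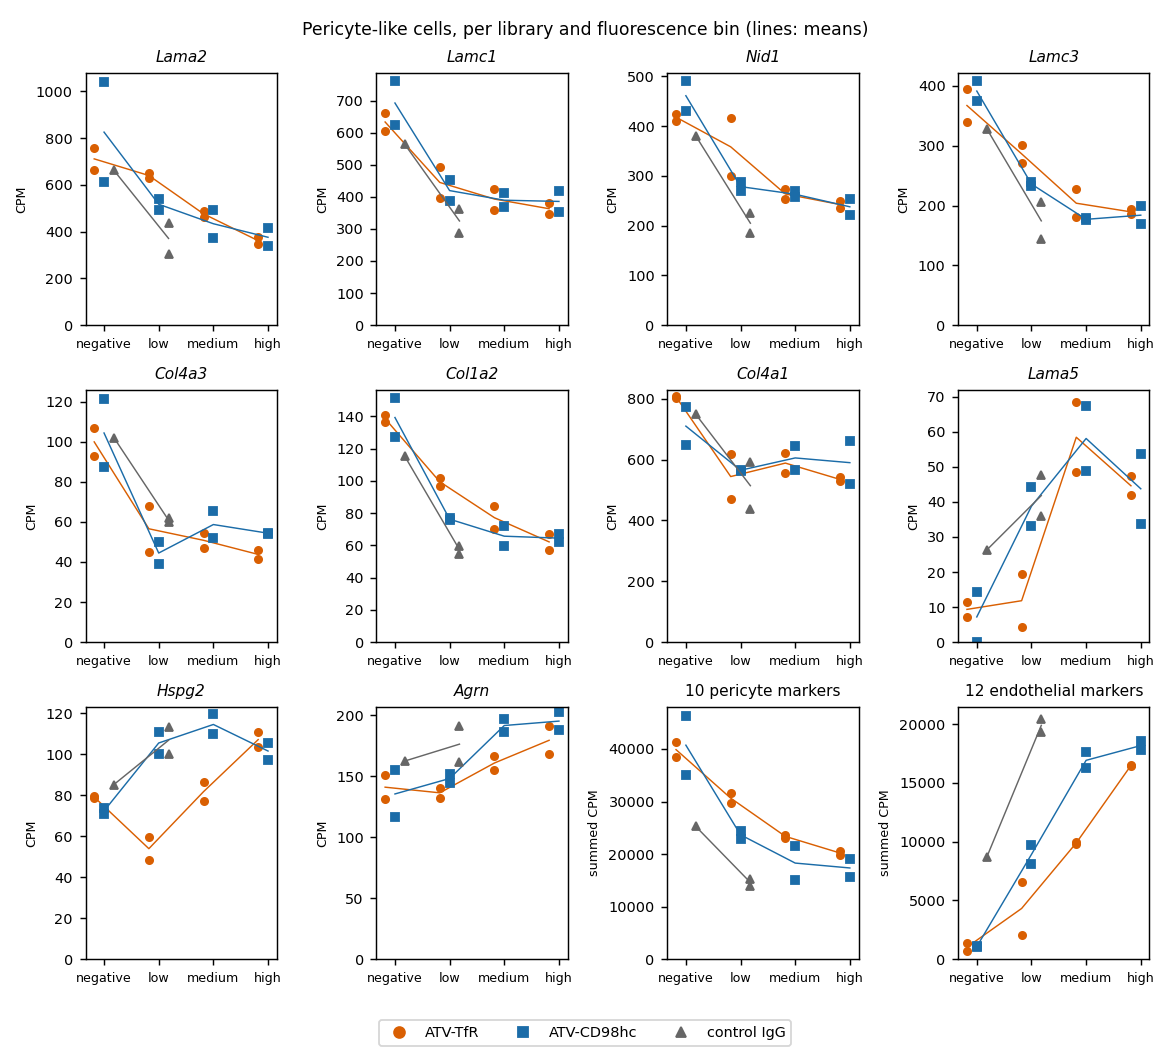
Level in CPM of 10 genes in pericyte-like cells by AF647 bin, with the summed level of 10 pericyte and of 12 endothelial markers in the last panels; each point is 1 library with at least 20 pericyte-like cells, coloured by treatment, and lines join the means. Lama2, Lamc1 and Nid1 fall and Lama5 rises from the negative to the high bins of both ATVs, together with a fall of the pericyte and a rise of the endothelial markers.

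Fibroblast-like cells could be compared in ATV-CD98hc, since the high bin of ATV-TfR held 9 and 6 of them. Lama1, Lama4, Lamc1, Col15a1 and 4 collagen IV genes were among those lower in the high bin, and Col18a1, Col8a1 and Col14a1 were higher: of 43 genes 14 were lower and 3 higher, beside 8.73% of all 11485 genes (4.52% higher, 4.21% lower). Without ATV-CD98hc replicate 1, which leaves 1 library per bin, fewer of the 43 were called. The share of all genes called in that fit is not given. Lama1 had 1519 and 886 CPM in negative and 194 and 146 in high libraries (-2.88, SE 0.28, adjusted p = 1.9e-07 in edgeR). Col15a1 had 870 and 643 against 87.3 and 112 CPM (-2.98), Col4a6 850 and 306 against 61.5 and 52.9 (-3.43), and Col4a1 915 and 633 against 209 and 190 (-2.02). None of these groups overlapped. Col5a3 (-3.82), Col4a5 (-2.52), Lamc1 (-2.40) and Col11a1 (-2.26) were among the largest, and Col4a2, Col13a1, Lama4, Col12a1 and Col3a1 were lower too. Col22a1 had 20 UMIs in the negative and 1 in the high bin, a ratio of 101 (95% interval 16.2 to 4201). Col18a1 rose from 221 and 242 to 568 and 505 CPM (1.18, SE 0.27) and Col8a1 from 19.5 and 21.1 to 147 and 76.2 (2.42, SE 0.59), and Col14a1 had 1 UMI in the negative and 171 in the high bin, a ratio of 33.7 (5.98 to 1340).

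The bins held different fibroblast-like clusters. Cluster 26 (led by Dcn, Spp1 and Slc6a13) was 32 of 33 and 23 of 24 cells of the ATV-CD98hc negative libraries, and cluster 36 (led by Dcn, Coch and Cemip) 72 of 79 and 77 of 88 of the high ones. Cluster 26 also held 92.9% to 95.6% of the fibroblast-like cells in the negative libraries of ATV-TfR and 94.7% in control IgG, and 84.3% to 86.4% in the low bin of ATV-CD98hc, against 7.53% to 13.8% in the low bin of ATV-TfR and 3.87% to 5.93% in that of control IgG. Over pools, cluster 26 had 944 CPM ± 178 of Lama1 (SD, n = 5) and cluster 36 had 144 ± 36 (SD, n = 6). Col15a1 (580 and 50.002 CPM), Col4a6 (427 and 32.4), Col4a5 (528 and 65.3), Lamc1 (556 and 77.6) and Col4a1 (737 and 204) were higher in cluster 26. Col18a1 (194 and 597), Lamb1 (188 and 380), Col26a1 (121 and 271), Col5a1 (26.1 and 106), Col14a1 (1.02 and 78.8) and Col8a1 (11.1 and 97.0) were higher in cluster 36. These values are a description, since clusters are made from the cells' expression, and the high minus negative change could not be fitted within either cluster. Pericyte markers summed to 4670 to 5952 CPM in the negative and 797 to 1335 in the high libraries, endothelial markers to 611 to 630 and 1925 to 3765, astrocyte markers to 1982 to 2272 and 353 to 372, and fibroblast markers to 22705 to 23382 and 12217 to 13699, and their part in the change was not tested.

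**Figure D5:**
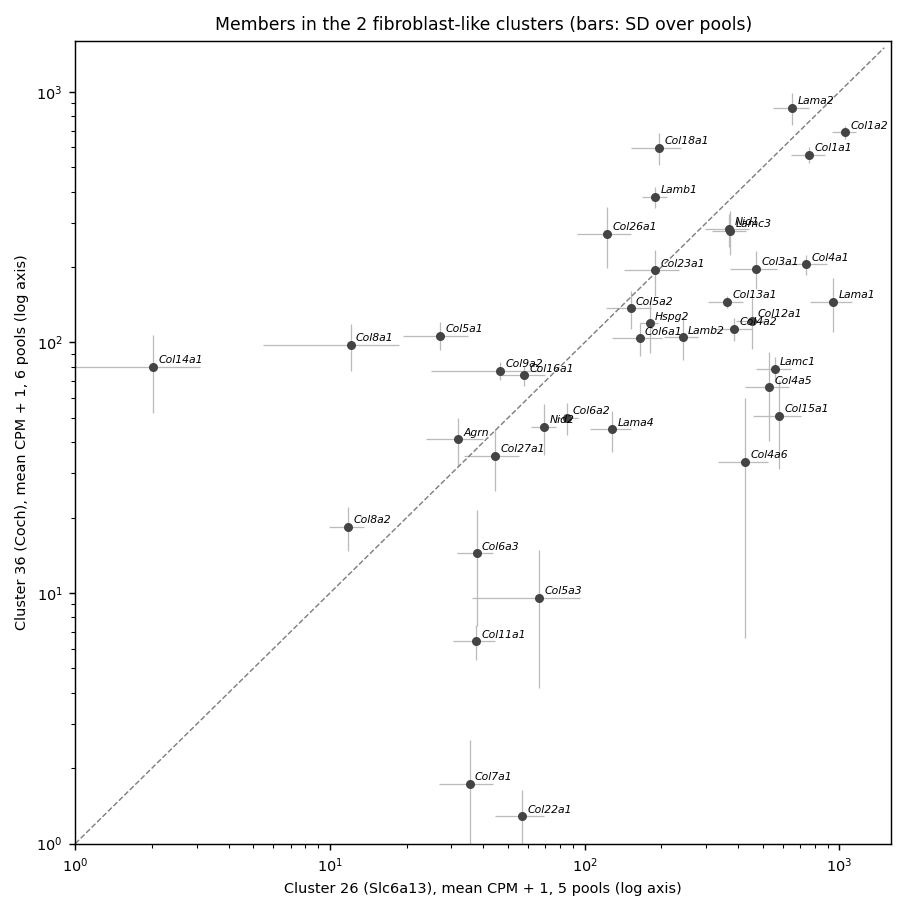
Mean level of the genes in cluster 26 (x axis, 5 pools) against cluster 36 (y axis, 6 pools) of the fibroblast-like cells, as CPM + 1 on log axes, with SD bars and a dashed line of equal level. Lama1, Col15a1, Col4a5 and Col4a6 lie on the side of cluster 26, and Col18a1, Col14a1 and Col8a1 on that of cluster 36.

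Smooth muscle-like cells were compared between the low and negative bins of ATV-TfR, with 63 and 42 against 697 and 538 cells. Of 31 genes 1 was higher and 3 were lower, beside 5.17% of all 10864 genes (4.66% higher, 0.515% lower). Lama2 had 66.1 and 58.7 CPM in negative and 189 and 172 in low libraries (1.44, SE 0.24, adjusted p = 1.9e-05 in edgeR). Astrocyte markers in these cells summed to 151 to 261 CPM in negative and 2206 to 3296 in low libraries, and Lama2 had 491 CPM in astrocyte-like cells; the part of that RNA was not tested. Col18a1 fell from 175 and 162 to 87.7 and 112 CPM (-0.88), Col3a1 by -1.55 and Col8a1 by -1.22, and with DESeq2 Lama2 alone was called.

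Astrocyte-like cells, compared between the low and negative bins of each ATV, had 1 called gene of 42 in each, beside 1.49% of all 16341 genes in ATV-TfR (0.00612% higher, 1.48% lower) and 2.54% in ATV-CD98hc (1.49% higher, 1.05% lower). With the pool as a block, since bins of a replicate come from the same mice, 4 genes in place of 1 were called in ATV-CD98hc. The share of all genes called in that fit is not given. Col23a1, a transmembrane collagen, had 38.1 and 34.9 CPM in negative and 23.2 and 20.2 in low libraries of ATV-TfR (-0.71, SE 0.17, adjusted p = 0.033 in edgeR). Cluster 4, an astrocyte-like cluster led by Crym with 252 CPM of Col23a1, made up 5.7% and 4.1% of the negative and 2.6% and 2.6% of the low cells. With stricter removal of doublets the change was -0.02 and not called. Lama3 had 68.0 and 77.8 CPM in negative and 29.8 and 44.8 in low libraries of ATV-CD98hc (-0.91, SE 0.17, adjusted p = 0.0027 in edgeR). Endothelial markers in the astrocyte-like cells of ATV-CD98hc summed to 6.68 to 12.6 CPM in negative and 43.0 to 75.6 in low libraries. Lama2 was not called in either.

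Genes that act on or with these matrix proteins were followed in 5 lists: receptors for collagens and laminins, enzymes of collagen synthesis and cross-linking, enzymes and inhibitors of matrix degradation, other matrix genes, and the TGF-beta pathway, which drives matrix synthesis. In endothelial-like cells of ATV-TfR (high against negative bin) 10 of 22 receptors were lower and 1 higher, with a median log2 change of -1.51 beside 0.20 over all genes, of which 4.55% were called higher and 6.74% lower. As with the 59, genes low in the high bin entered the test through the negative bin. Itga9, an integrin alpha chain, had 48.5 and 42.6 CPM in negative and 0.322 and 0.276 in high libraries (-6.96), and Itgb4, which binds laminin in hemidesmosomes, 27.1 and 36.9 against 0.746 and 0.552 (-5.32). Of 44 other matrix genes 16 were lower and 5 higher (median -1.19), led by the elastic fibre genes Fbln5 (237 and 290 against 0.661 and 0.114 CPM) and Fbn1 (40.7 and 45.4 against 0.271 and 0.162). The shift in clusters 24 and 8 and the higher arterial (3972 to 4883 against 529 to 564 CPM) and fibroblast markers (1429 to 2001 against 62 to 63 CPM) of the negative libraries went with Itga9, Itgb4, Fbln5 and Fbn1, and their part was not tested. Synthesis genes (4 lower, 0 higher of 27), degradation genes (8 lower, 3 higher of 24) and the TGF-beta pathway (3 lower, 1 higher of 24) had medians of 0.01, -1.42 and -0.18. In ATV-CD98hc the counts of lower and higher genes were 6 and 1, 2 and 0, 5 and 0, 12 and 5, and 2 and 2 in the order receptors, synthesis, degradation, other matrix and TGF-beta (4.42% and 1.94% of all genes), and in control IgG (low against negative) 4 and 1, 0 and 0, 2 and 0, 6 and 4, and 1 and 0 (3.53% and 0.534% of all genes). No gene of the lists was called in the difference between the ATVs or between treatments.

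In pericyte-like cells of ATV-TfR 9 receptors were lower and 3 higher of 18, beside 10.5% of all genes lower and 12.6% higher, and the highest was Itga6, a laminin-binding integrin chain, with 7.68 and 19.2 CPM in negative and 280 and 274 in high libraries (4.52). Of 37 other matrix genes 12 were lower and 7 higher, and Hmcn1 went from 1.54 and 3.59 to 326 and 309 CPM. The TGF-beta pathway ran the other way, with 11 higher and 2 lower of 23 (median 0.74 beside -0.04 over all genes), led by Id1 (49.1 and 89.8 to 663 and 694 CPM) and the endothelial receptor Acvrl1 (34.9 and 48.5 to 331 and 333). Synthesis genes had 6 lower and 2 higher of 23 and degradation genes 6 and 5 of 17. ATV-CD98hc had 5 and 2, 14 and 6, 2 and 11, 6 and 2, and 6 and 5 lower and higher genes in the same order of lists, beside 9.83% and 11.1% of all genes. The summed endothelial markers given above were higher in the same libraries as Itga6, Hmcn1 and Acvrl1, and their part in these changes was not tested.

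In fibroblast-like cells of ATV-CD98hc 5 of 18 receptors were higher and 1 lower, beside 4.52% and 4.21% of all genes. The cross-linking enzyme Loxl1 rose (19.5 and 42.2 to 181 and 126 CPM), with 2 higher and 3 lower of 24 synthesis genes, and the degradation list had 3 and 3 of 20. Of 48 other matrix genes 11 were higher and 8 lower, with Vtn (5452 and 4101 to 296 and 653 CPM) and Fbln2 (286 and 211 to 9.71 and 48.2 CPM) lower, and of 24 TGF-beta genes 7 were higher and 2 lower. Vtn is also a pericyte gene: the pericyte markers summed to 4670 to 5952 CPM in the negative and 797 to 1335 in the high libraries, and most cells were of cluster 26 in the negative and of cluster 36 in the high bin. The part of either in these changes was not tested. Smooth muscle-like cells had 1 receptor higher of 18 (Itga6, 2.87), 0 of 24 synthesis genes, 2 degradation genes higher of 13, 4 other matrix genes higher and 2 lower of 30, and 1 TGF-beta gene lower of 24, beside 4.66% of all genes higher and 0.515% lower. Astrocyte markers summed to 151 to 261 CPM in the negative and 2206 to 3296 in the low libraries of these cells, and their part was not tested. In astrocyte-like cells 23 receptors, 28 synthesis, 19 degradation, 46 other matrix and 24 TGF-beta genes were tested. They had in ATV-TfR 2 receptors, 1 synthesis gene, 1 other matrix gene and 1 TGF-beta gene lower and no list gene higher, beside 1.48% of all genes lower and 0.00612% higher, and in ATV-CD98hc 1 receptor, 1 degradation gene, 4 other matrix genes and 4 TGF-beta genes higher and 1 synthesis gene lower, beside 1.49% of all genes higher and 1.05% lower. In the astrocyte-like cells of ATV-CD98hc, endothelial markers summed to 6.68 to 12.6 CPM in negative and 43.0 to 75.6 in low libraries, and neutrophil markers to 1.59 to 1.70 and 11.3 to 12.8. In those of ATV-TfR smooth muscle markers summed to 56.1 to 79.4 and 15.5 to 17.3 CPM. The part of this RNA was not tested.

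The same lists were counted between the class pairs, where 19.6% of all genes were called higher and 27.1% lower in endothelial-like than in pericyte-like cells, and 23.1% higher and 24.4% lower in fibroblast-like than in pericyte-like cells. Endothelial-like cells were lower than pericyte-like cells in 13 receptors and higher in 3 of 23, and lower in 16 and higher in 5 of 30 synthesis genes, led by Itga7 (-7.34), which pairs with Itgb1 to bind laminin, and Pcolce (-6.78), an enhancer of procollagen processing. Degradation genes had 8 lower and 5 higher of 27, other matrix genes 25 and 14 of 50, and the TGF-beta pathway 3 and 12 of 24. Fibroblast-like cells were higher than pericyte-like cells in 16 and lower in 3 of 30 synthesis genes, among them the cross-linking enzymes Loxl1 (7.23) and Lox (6.87), and higher in 15 and lower in 5 of 27 degradation genes, led by Mmp2 (7.27). They were higher in 29 and lower in 11 of 50 other matrix genes, led by Mfap4 (11.36) and Lum (11.14, also a marker that named the class), and higher in 10 and lower in 6 of 23 receptors and in 12 and 6 of 24 TGF-beta genes. Against smooth muscle-like cells, with 26% of all genes higher and 19.5% lower, fibroblast-like cells were higher and lower in 7 and 9 receptors, 18 and 3 synthesis genes, 12 and 6 degradation genes, 28 and 11 other matrix genes and 16 and 5 TGF-beta genes. Pericyte-like cells were higher than smooth muscle-like cells in 1 receptor and lower in 13, beside 23.3% and 15.6% of all genes, and higher and lower in 9 and 8 synthesis genes, 9 and 8 degradation genes, 15 and 11 other matrix genes and 10 and 5 TGF-beta genes. Astrocyte-like cells were higher and lower than endothelial-like cells in 12 and 10 receptors, 15 and 11 synthesis genes, 14 and 8 degradation genes, 26 and 19 other matrix genes and 5 and 16 TGF-beta genes, beside 50.7% and 33% of all genes.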

How the data were processed

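UMI counts per gene and cell barcode were deposited by the authors as 1 matrix, made with Cell Ranger 7.1.0 per the file headers; the submitters' processing notes name mm10 and Seurat. The other deposited columns, cell barcodes with the library they belong to, gave each cell's sample. Barcodes under 500 genes, under 800 UMIs or over 10% mitochondrial UMIs were dropped, and the others kept (249715 of 265025), and 15691 doublets were removed. In 8 libraries, whose automatic threshold marked almost no cell, doublets were taken as the cells above percentile 94 of the score. All 4 high libraries of the ATVs were among them and no negative library was, so the rule differs along the high against negative comparisons (5.21% to 5.49% removed in the former, 3.12% to 7.50% in the latter). The kept cells were clustered with scanpy 1.11.5 (2000 variable genes without the 59, 50 components, 15 neighbours, resolution 1), and clusters were named from marker lists. A class needed 20 cells in a library or pool.

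UMIs were summed per class and library, or per class and pool, and tested with edgeR 4.0.16 (quasi-likelihood, TMM factors, filter on low counts) in R 4.3.3, with Benjamini-Hochberg adjustment over all genes tested and a threshold of 0.05. Summed counts, not cells, are the replicates. DESeq2 1.42.0, RLE factors, other filters, other doublet and cell limits, the pool as a block, leaving out each replicate and, for levels and class pairs, the negative bins only were alternatives. Same-numbered libraries of a treatment come from the same mice per the labels, and 47 of 50 same-pool correlations of deviations were above 0 (27 above 0.1). On simulated data, 71 of 200 changed genes were recovered for endothelial-like cells of ATV-TfR high against negative, with 5 false calls among 14556 genes, and 198 of 200 for a pair of classes, with 9 among 14985. The changes put in were large, with median fitted log2 changes of 2.05 for raised and -1.73 for lowered genes in the endothelial-like case. A gene not called in that comparison can therefore still have changed.

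Genes of the rule with a mean of 10 CPM in 1 class were named, apart from an item that is not reported here. Called genes of a comparison were named, or the 10 largest and the rest by name or count, and in endothelial-like cells the main vascular genes always; list genes were limited to 3 per list. The members and lists were chosen with earlier results of these data known. Protein sequences were not used here.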

Additional observations from a re-analysis of the deposited data

Results flagged for a closer look

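Pools of each class were screened for 1 sample far from the others, which chance flags in about 1 in 20 groups, and 2 of 52 levels were flagged. Col11a1 in oligodendrocyte precursor-like cells had 35.3 CPM in ATV-TfR replicate 2, from 35 cells, and 56.2 to 59.6 in the other pools (n = 4). Col6a5 in ependymal-like cells had 132 CPM in control IgG replicate 2, from 92 cells, and 42.2 to 52.9 in the other pools (n = 5).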

How the results depend on the processing

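Counts of called genes among the 59 stayed within 1.5 times for the 5 class pairs, the chain ratios (0 throughout) and the class levels. With 5 pools the smallest possible p of a ratio in the exact sign-flip test is 0.0625. Leaving out a pool could therefore give no call, and the 0 says nothing about stability there. Other counts moved. For endothelial-like cells, ATV-TfR high against negative gave 21 with DESeq2 and 7 in cluster 8 alone (9 to 18 leaving out 1 replicate), ATV-CD98hc gave 4 in cluster 8 (6 to 10), control IgG low against negative gave 0 in cluster 8 (3 to 7, lowest without ATV-TfR replicate 2), and the difference between ATVs gave 1 with no filter and 2 with the replicate block (0 to 1). ATV-TfR against control IgG gave 2 with DESeq2 and 13 in low bins (0 to 3), ATV-CD98hc against control IgG 2 with DESeq2, 1 with the replicate block and 13 in low bins (0 to 3), and ATV-TfR against ATV-CD98hc 4 in low bins. Astrocyte-like cells gave 0 with DESeq2 and 0 with stricter doublets in ATV-TfR (0 to 1), and 5 with no filter and 4 with the block in ATV-CD98hc (1 to 2). Pericyte-like cells gave 1 to 27 in ATV-TfR (lowest without ATV-TfR replicate 1, highest without ATV-CD98hc replicate 2) and 6 to 17 in ATV-CD98hc, fibroblast-like cells 6 to 17 (lowest without ATV-CD98hc replicate 1), and smooth muscle-like cells 1 with DESeq2, with a stricter filter or with at least 50 cells (1 to 4), all leaving out 1 replicate. The signs of 5 gene results turned: Hspg2 (0.39) and Nid1 (0.027) in cluster 8 of ATV-TfR, Lama2 (7.04) in ATV-CD98hc without ATV-CD98hc replicate 1 (-4.50 without replicate 2), and Col15a1 (3.41 and 2.25) against control IgG in low bins. Of the other gene results under alternatives, 2585 kept direction and side of the threshold, 93 lost and 46 gained a call and 105 moved; the cause was not tested. With the negative bins only, 44 levels and chain ratios moved by over 1 SD, and 71 other levels, ratios and class-pair differences kept their place. The cluster 8 setting and the control IgG comparison were chosen after seeing the data. A fit within each fibroblast-like cluster, and one of fibroblast-like cells with at least 50 cells, could not be fitted for lack of cells (1 cell of cluster 36 in each ATV-CD98hc negative library, 7 and 11 of cluster 26 in the high ones). The negative bins of the ATVs, with 55 to 124 endothelial-like cells, limit the depth of those comparisons.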

Other observations

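Among the unnamed clusters, cluster 33 (424 cells, led by Igfbp6, Prg4, Ccn3, Slc47a1 and Mgp) carried much collagen RNA. It had 913 CPM ± 329.8 of Col25a1 and 415 ± 77.2 of Col6a1 (SD, n = 6 pools), with means of 551 for Col1a2, 323 for Col1a1, 294 for Col6a2, 290 for Col23a1, 243 for Col12a1 and 237 for Lamb2. Cluster 35 (3592 cells, led by Rgs5 and Cldn5) had 429 CPM of Col4a1, 272 of Col4a2 and 191 of Agrn. Cluster 23 (495 cells, led by Top2a) had 192 CPM of Lama2 and 72.0 of Col9a3.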
